A study of Mus musculus with 48 samples.

Results

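Astrocytes sorted from the olfactory bulb of mice labelled Gq-Saline were compared with astrocytes sorted from the olfactory bulb of untreated mice, 3 libraries against 3, out of 48 libraries in the series. The 6 libraries were chosen by their labels alone, as the GFP astrocyte libraries from 2 groups whose labels name no clozapine-N-oxide (CNO) treatment. All carry the Aldh1l1-GFP genotype, in which the promoter of the astrocytic folate enzyme gene Aldh1l1 drives green fluorescent protein (GFP), and they differ in the treatment label, Gq-Saline or untreated. Gq refers to a designer receptor coupled to Gq proteins, for which CNO is the ligand and saline the vehicle. The labels leave out which cells express the receptor, how it was delivered, how old the mice were, and whether the libraries came from separate animals. The p-values therefore measure the spread between these libraries, which may be technical. The comparison asks which transcripts differ between the vehicle arm and mice labelled untreated. The other 6 olfactory bulb GFP libraries, 3 Gq-CNO and 3 CNO-control, have the same genotype and treatment labels that name CNO. They give a companion comparison that shares no library with the first.

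Astrocytes clear glutamate and potassium from the space around synapses, move water through the end-feet that wrap blood vessels, and supply neurons with lactate and lipids. Microglia are the resident macrophages of brain tissue and depend on signalling through the receptor encoded by Csf1r. A sort for astrocytes can hold some RNA of other cells, so transcripts of those cells were read beside the astrocytic ones. In bulk libraries, fewer cells of a type and less RNA per cell cannot be told apart.

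The Gq-Saline libraries held 11.09, 11.03 and 3.09 times 1000000 reads assigned to genes, and the untreated libraries 2.37, 1.72 and 2.96 times 1000000. All 18 astrocyte markers were detected in every library, with a summed level of 67174 to 71049 RPM (the reads of a gene out of every 1000000 that its library assigned to genes) in Gq-Saline and 66396 to 73649 in untreated libraries. The neuron markers (757 to 986 against 785 to 1021 RPM) and the oligodendrocyte markers (1124 to 1361 against 1061 to 1476 RPM) overlapped in their sums. The median level of the neuron list did not, at 7.66 to 12.5 RPM in Gq-Saline and 2.36 to 6.09 RPM in untreated libraries. Sums of fibroblast and meningeal markers (1281 to 2900 RPM in Gq-Saline against 747 to 925) and of olfactory ensheathing glia markers (2816 to 4062 against 1925 to 2159) were higher in every Gq-Saline library, and their part in the results was not tested. The median levels overlapped in both lists. They were 18.2 to 37.4 against 14.5 to 26.1 RPM for the fibroblast list and 20.3 to 29.8 against 18.6 to 28.7 RPM for the ensheathing glia list. The ensheathing glia list includes the abundant Fabp7, which is described below. Of the 9 ensheathing glia genes tested, 4 lay above 0 and 5 below. Sums of microglia markers did not overlap and are described with the genes below. Reads of Xist, the female-specific RNA that silences one X chromosome, numbered 310, 637 and 19 in the untreated and 977, 0 and 1 in the Gq-Saline libraries, and reads of the Y-linked gene Ddx3y 0, 0 and 434 against 0, 1048 and 218. Both groups thus mixed libraries with reads of either kind. In the companion comparison, Ddx3y had 0 reads in all 3 CNO-control libraries and Xist 0 in all 3 Gq-CNO libraries, so that sex and group cannot be told apart there. The Gq libraries and the other libraries were deposited in separate tables, each normalised on its own, and the group and the table cannot be told apart either.

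Of 10711 genes tested, 232 (2.17%) differed between Gq-Saline and untreated astrocytes in limma at a Benjamini-Hochberg adjusted p under 0.05. Of these, 67 (0.626% of the genes tested) were higher and 165 (1.54%) lower in Gq-Saline, and the groups did not overlap for any of the 232. Quantile normalization gave a more even split, 113 higher and 135 lower. Without limma's mean-variance trend 1 gene, Ndrg2, was called, and with any 1 library left out 104 to 197 were. Over all genes tested, 19.9% had groups that did not overlap, and the median log2 difference was 0.046. Differences are given as Gq-Saline minus untreated on the scale of log2(normalised reads + 1), and normalised reads are listed in replicate order. For low genes this scale can understate the change, or overstate it where single libraries lie near 0. Ifi44 stood at -3.76 here and -4.75 in edgeR, and Itgam at -4.31 here and -3.16 in edgeR.

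The called genes differed in base composition and length. Genes called higher had a median GC content of 53.0% and a median transcript length of 2300 bases, genes called lower 42.2% and 5190 bases, and all genes tested 48.8% and 3689 bases. Across 5 equal classes of genes from lowest to highest GC content, the median log2 difference went from -0.30 through -0.13, 0.065 and 0.26 to 0.40. Across 5 classes of transcript length it went from 0.35 to -0.17. After each library was corrected for both properties, 53 genes (0.495%) were called, 18 higher (0.168%) and 35 lower (0.327%). They included 14 of the 67 and 33 of the 165, and all 67 and 165 kept the sign of their difference.

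**Figure D1:**
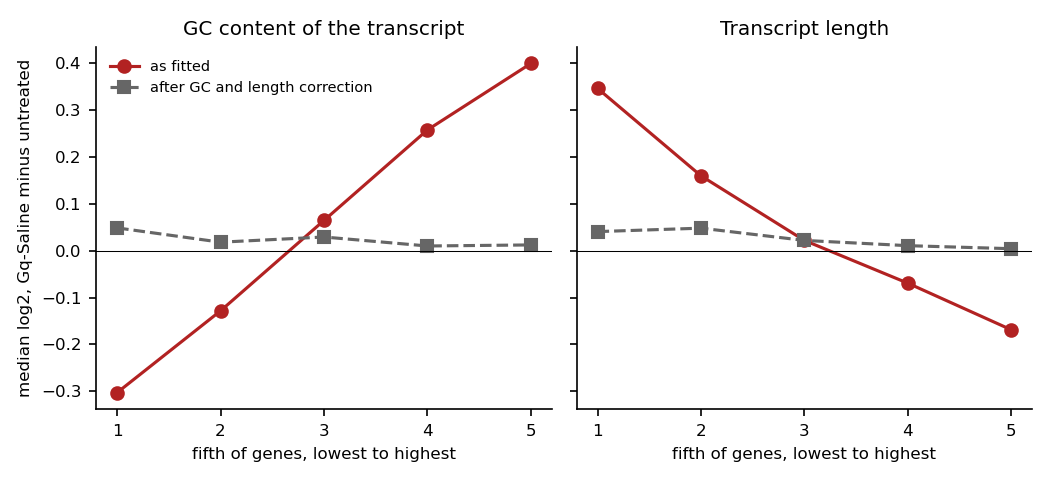
Median log2 difference (Gq-Saline minus untreated) in 5 equal classes of genes by GC content (left) and length (right) of the longest transcript, from lowest to highest. Red points are the differences as fitted, and grey squares those after correction of each library; the red points run from -0.30 to 0.40 with GC content and from 0.35 to -0.17 with length.

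Genes of microglia and other macrophages fell. Ctss, which encodes the lysosomal protease cathepsin S, had 28.1, 17 and 30.6 normalised reads in the Gq-Saline and 303, 369.6 and 379 in the untreated libraries. Every untreated library stood far above every Gq-Saline library, and the difference was -3.78 (SE 0.44, adjusted p = 3.52e-05), or 13.7-fold lower. The gene (ENSMUSG00000038642.10) lies on chromosome 3 between 95526786 and 95556403 of mm10. Csf1r, the receptor for colony-stimulating factor, fell from 526 ± 97 to 60.8 ± 14.7 (SD, n = 3 each; log2 -3.10, SE 0.34, adjusted p = 2.03e-05). Its libraries had 515, 435 and 628 untreated and 77.7, 54.1 and 50.5 with saline, again without overlap. P2ry12, the purinergic receptor by which microglia sense released nucleotides, fell by 2.51 on the log2 scale, from 521, 511 and 734 to 120.3, 95.7 and 89 (adjusted p = 3.52e-05).

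Of 13 microglia markers tested, 8 fell and 0 rose, and all 13 lay below 0 with a median of -2.67, against 0.046 over all genes. With any 1 library left out, 6 to 8 of the 11 to 13 then tested were called, and after the GC and length correction 8 of 13 were, with a median of -2.85. The summed level of the list was 700, 630 and 821 RPM in the untreated libraries and 153, 115 and 100 RPM in the Gq-Saline libraries. None of the 13 was at 0 in any untreated library, and at most 2 were at 0 in a Gq-Saline library. The CNO-control libraries, deposited in the same table as the untreated ones, had 110.0 to 199 RPM and the Gq-CNO libraries 98.7 to 189. Among the 4 groups of olfactory bulb GFP astrocytes, the untreated libraries thus lay above the other 3 groups.

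**Figure D2:**
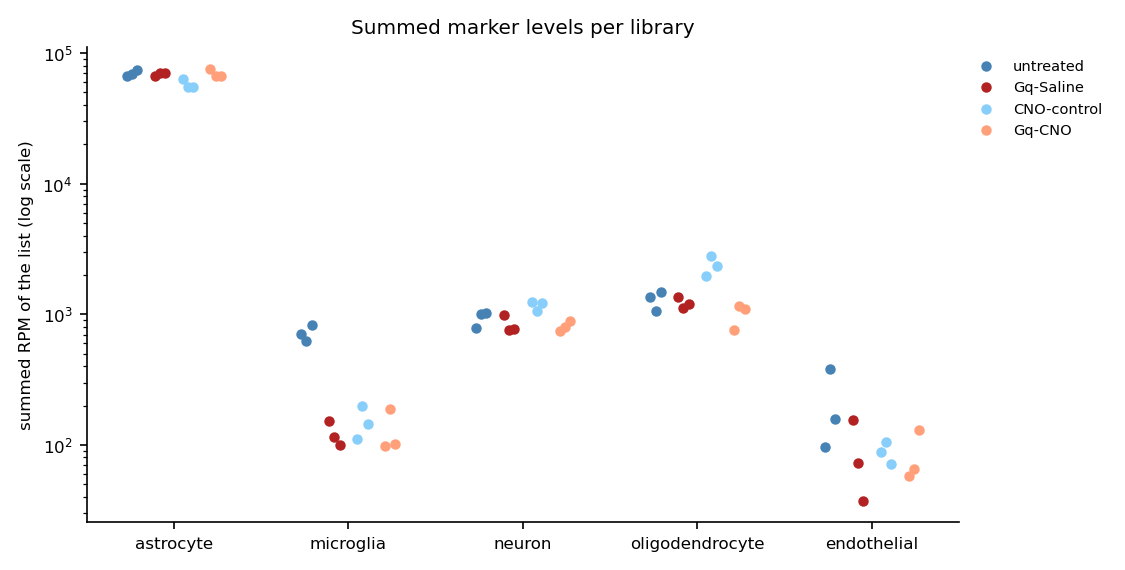
Summed RPM (log scale) of 5 marker lists in each olfactory bulb GFP library, 3 libraries per group, 1 point each. Microglia markers sum to 630 to 821 RPM in the untreated libraries and to 98.7 to 199 RPM in the other 3 groups, while astrocyte markers lie between 55149 and 76130 RPM throughout.

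Among border macrophage and monocyte markers, 5 of 12 passed the filter on low values, and 2 fell. Mrc1, the mannose receptor of border macrophages, had 439, 209 and 349.9 normalised reads untreated and 39.7, 5.79 and 17.3 with saline (-4.22, SE 0.58, adjusted p = 2.29e-04). Lyz2, the lysozyme gene of myeloid cells, had 154, 100 and 129 against 21.1, 27.9 and 6.64 (-2.90, adjusted p = 0.0165). F13a1, a coagulation factor subunit made by macrophages, had 98.6, 51.1 and 69.1 against 4.3, 0.681 and 26.6 and did not pass (adjusted p = 0.0632). The summed level of the list was 111 to 182 RPM untreated and 13.3 to 26.3 RPM with saline.

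Most of the 12 falling genes that the naming rule picked are leukocyte genes. Cd53, a tetraspanin of leukocytes, had 72.5, 93 and 118 normalised reads untreated and 1.65, 4.77 and 0 with saline (-5.24, adjusted p = 0.00638). Itgam, the integrin subunit CD11b, had 582, 363 and 259 against 92.8, 31.322 and 1.33 (-4.31, adjusted p = 0.00524). Siglech, a sialic acid receptor of microglia, had 112, 121 and 268 against 8.59, 58.9 and 5.31 (-3.33, adjusted p = 0.0159). Each of these genes had over 50 normalised reads in every untreated library and under 10 in at least 1 saline library. Nckap1l (-3.87), the haematopoietic member of an actin-regulating complex, Lcp1 (-3.75), the leukocyte actin-bundling protein plastin, and Hpgds (-3.60), the haematopoietic prostaglandin D synthase, also fell. In edgeR, Nckap1l, Lcp1 and Siglech did not pass (adjusted p = 0.132, 0.202 and 0.0509), and in DESeq2 Itgam and Lcp1 did not (adjusted p = 0.128 and 0.1). Mpeg1, a macrophage pore-forming protein named after its values were seen, had 385, 258 and 231 normalised reads untreated and 32.1, 34.4 and 33.2 with saline (-3.06, adjusted p = 2.29e-04).

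The remaining picks are known from other cells. Cd93, a receptor of endothelial and myeloid cells, had 83.7, 411 and 63.6 untreated against 5.95, 15 and 0 with saline (-4.77, adjusted p = 0.0101). Ebf1, a transcription factor of B cells and vascular mural cells, had 158, 114 and 51.2 against 27.8, 1.7 and 3.99 (-3.76, adjusted p = 0.0279). Of 9 endothelial markers tested, 1 fell, all 9 lay below 0, and the median was -1.24. The called marker was Abcb1a, the drug efflux pump of brain endothelium, with 109.7, 349 and 225 against 93.5, 40.9 and 49.1 (-1.82, adjusted p = 0.0433). Summed endothelial levels overlapped between groups, at 96.6, 383 and 158 RPM untreated and 154, 72.5 and 37.3 RPM with saline. The second untreated library was the highest. No T or NK cell marker and no red blood cell marker passed the filter.

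The 6 olfactory bulb mCh sorts from Gq-Saline and Gq-CNO mice, whose titles call them neurons, were used to mark genes enriched outside the GFP gate. Their microglia markers summed to 5061 to 10408 RPM, their neuron markers to 1773 to 4763 RPM and their astrocyte markers to 9357 to 26736 RPM, which goes against a label of neurons alone. Of all genes tested, 222 (2.07%) were at least 8-fold higher in these sorts than in Gq-CNO GFP astrocytes, as the ratio of the group medians of RPM + 1. With nothing added to the RPM, 328 (3.06%) were, with 27 of the 165 among them. The 222 made up 26 of the 165 genes called lower and 0 of the 67 called higher. After the GC and length correction, 15 of these 26 and 18 of the other 139 were still called. The Gq-CNO and Gq-Saline libraries share a deposited table and the Gq label. A gene low in both is favoured for enrichment and for a lower call, so the split of 26 and 0 is in part built in. Csf1r reached a median of 1576 RPM in the Gq-Saline mCh sort and 14.4 RPM in the Gq-Saline GFP astrocytes, with 116.8 RPM in the untreated GFP astrocytes.

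Toll-like receptors, which sense microbial and nucleic acid patterns, were added as a family after their values were seen. Of 12 genes, 5 were tested and 3 fell. Tlr3, the sensor of double-stranded RNA, had 1259, 1346 and 1463 normalised reads untreated and 586, 447 and 611 with saline (-1.32, SE 0.19, adjusted p = 4.29e-04), and after the GC and length correction -0.94 (adjusted p = 0.0243). Tlr4, the lipopolysaccharide receptor, had 283, 363 and 357 against 137, 121 and 187 (-1.18, adjusted p = 0.0442), and Tlr7, the single-stranded RNA sensor, 46.5, 107 and 29 against 1.32, 0 and 0 (adjusted p = 0.027). After the correction Tlr4 (-0.78, adjusted p = 0.273) and Tlr7 (adjusted p = 0.0734) were not called, and Tlr4 did not pass in edgeR (adjusted p = 0.0516). The median level of Tlr7 was 55.7 RPM in the mCh sorts and 0.236 RPM in Gq-CNO GFP astrocytes, while Tlr3 had 97.7 and 149 RPM and Tlr4 28.3 and 33.9 RPM.

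Interferon-responsive and antigen-presentation genes were lower in part. B2m, the invariant light chain of MHC class I, had 5154, 2329 and 2726 normalised reads untreated and 1163, 1230.4 and 1247 with saline. The groups did not overlap, and the first untreated library was about as high as the other two together. The log2 difference was -1.40 (SE 0.21, adjusted p = 4.87e-04), and -1.39 after the GC and length correction (adjusted p = 0.00539). Gbp7, an interferon-induced guanylate-binding GTPase, had 895, 479 and 412 against 254, 185 and 291 (-1.23, adjusted p = 0.0277), and Iigp1, an immunity-related GTPase, 219, 39.5 and 40.1 against 1.32, 11.2 and 0 (-4.55, adjusted p = 0.0358). After the correction neither Gbp7 (-0.91, adjusted p = 0.194) nor Iigp1 (adjusted p = 0.104) was called. The promoters of the called pair B2m and Gbp7 are shown because each holds a core of the interferon-stimulated response element. They run from 250 bases before to 50 after the start in RefSeq on GRCm38.p6 (B2m chr2:122147437-122147736, Gbp7 chr3:142530086-142530385, both on the plus strand), 5′ to 3′, with matches to GAAANNGAA on either strand in capitals.
B2m: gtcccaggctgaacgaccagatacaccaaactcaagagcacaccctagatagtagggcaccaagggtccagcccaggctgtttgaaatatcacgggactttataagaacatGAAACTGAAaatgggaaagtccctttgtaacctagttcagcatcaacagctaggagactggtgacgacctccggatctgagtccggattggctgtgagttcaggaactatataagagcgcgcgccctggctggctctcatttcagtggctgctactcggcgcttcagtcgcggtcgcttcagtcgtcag
Gbp7: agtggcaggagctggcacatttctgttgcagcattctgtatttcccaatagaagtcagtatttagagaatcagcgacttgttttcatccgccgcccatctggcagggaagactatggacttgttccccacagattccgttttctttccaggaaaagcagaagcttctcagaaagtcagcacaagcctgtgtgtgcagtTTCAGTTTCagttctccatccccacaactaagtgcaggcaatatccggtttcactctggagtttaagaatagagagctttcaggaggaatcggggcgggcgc
Each holds 1 match, and 8.56% of 32851 promoters of this length hold at least 1. The search first used a form longer by a final A, and the motif was shortened after those matches were seen. A match describes the letters and is no measured site.

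Of 12 interferon-gamma GTPase genes tested, Gbp7 and Iigp1 fell and 0 rose, 11 lay below 0, and the median was -1.30, while 0 were called after the correction. Gbp9, of the same family, had 26, 83.7 and 73.3 against 0.33, 9.53 and 9.3 and did not pass (adjusted p = 0.0909). Of 17 type I interferon-stimulated genes tested, 0 were called by limma, 15 lay below 0 and the median was -0.96. Ifi44, an interferon-induced antiviral gene, had 525, 18.6 and 11.06 untreated and 15.5, 2.04 and 0 with saline, so the groups overlapped. Ifit3, which encodes a protein that binds foreign RNA, had 614, 186 and 163 against 111, 118 and 104. In both genes the first untreated library stood above the rest. Of 12 MHC class I and antigen processing genes, B2m alone was called, and the median was -0.59.

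Of 10 complement genes tested, 3 fell, among them C1qb and C1qc. C1qb and C1qc, which encode chains of the initiator C1q made by microglia, fell by 2.27 (adjusted p = 0.00747) and 2.15 (adjusted p = 0.0366) on the log2 scale. C1qa, the remaining chain, had 22.3, 20.9 and 71.9 normalised reads untreated and 4.96, 5.79 and 3.99 with saline and did not pass (adjusted p = 0.239). The list's median was -0.79, and its members ran from -2.51 to 2.18. The median level of C1qb was 739 RPM in the mCh sorts and 8.03 RPM in Gq-CNO GFP astrocytes, and that of C1qc 709.6 and 4.02 RPM.

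**Figure D3:**
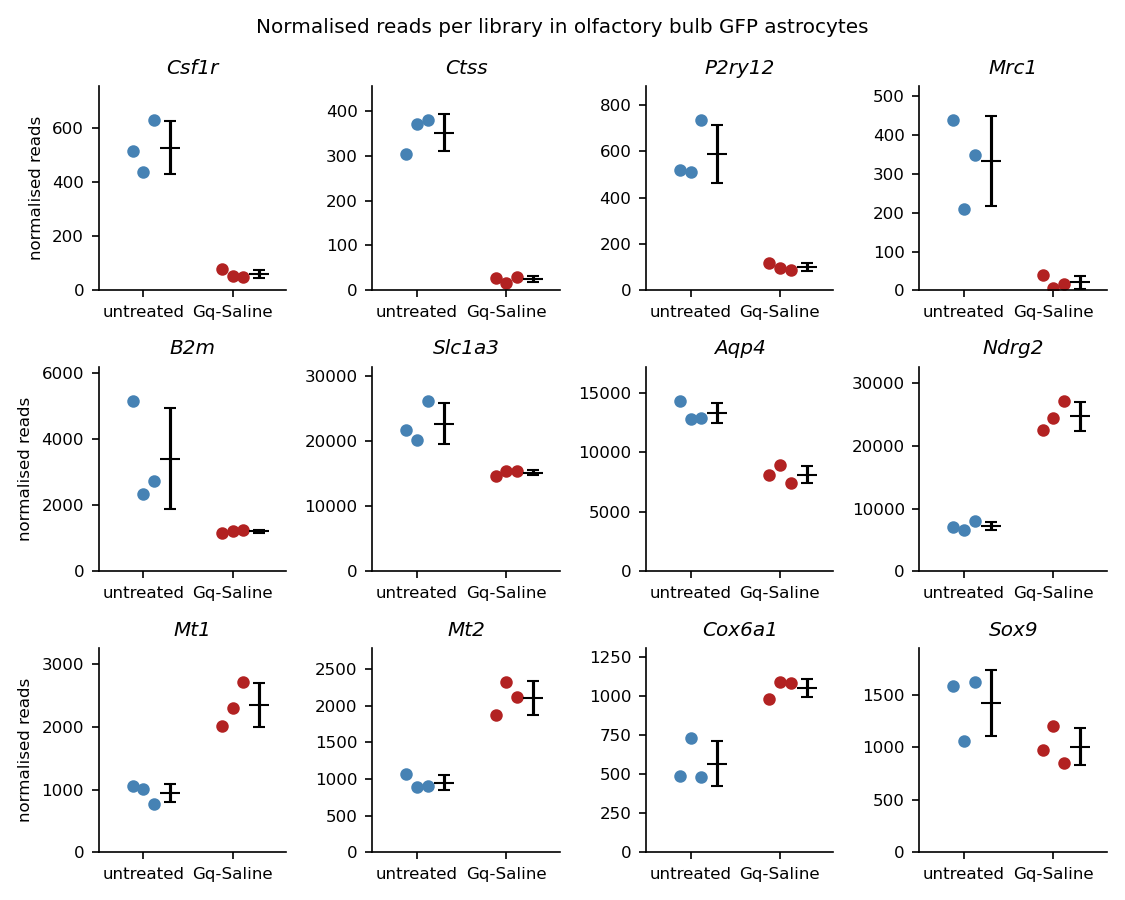
Normalised reads per library of 12 genes in untreated (blue) and Gq-Saline (red) olfactory bulb GFP astrocytes, 3 libraries each; the bars give mean ± SD and every axis starts at 0. The groups do not overlap for any gene shown but Sox9.

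Transcripts of the astrocytes themselves moved both ways. Ndrg2, a stress-responsive gene used as an astrocyte marker, had 7068, 6647 and 7970.2 normalised reads untreated and 22562, 24353 and 27099.6 with saline. Every saline library stood far above every untreated one. Ndrg2 rose by 1.77 (SE 0.11, adjusted p = 1.76e-09), or 3.41-fold, and by 1.45 after the GC and length correction (adjusted p = 2.53e-07). The gene (ENSMUSG00000004558.15) lies on chromosome 14 between 51905271 and 51914158 of mm10. Gfap, the intermediate filament of astrocytes, had 1616, 1506 and 1329 untreated and 2550.2, 2346 and 2409.6 with saline (0.72, SE 0.15, adjusted p = 0.0128). After the correction Gfap did not pass (0.36, adjusted p = 0.343).

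A set of 4 transport genes of astrocytes fell. Slc1a3, the glutamate transporter GLAST, had 21820.3, 20228 and 26210.5 normalised reads untreated and 14740.3, 15505 and 15386 with saline (-0.57, SE 0.11, adjusted p = 0.00638). Aqp4, the water channel of end-feet, had 14300.1, 12772 and 12881 against 8081, 8897 and 7414 (-0.71, adjusted p = 0.00112). Slc4a4, a sodium bicarbonate cotransporter, fell by 0.57 and Atp1b2, the glial sodium pump subunit, by 0.59 on the log2 scale (adjusted p = 0.0097 and 0.00725). These decreases were below 2-fold, with no overlap between groups. After the GC and length correction Atp1b2 was called (-0.79) and Slc1a3, Aqp4 and Slc4a4 were not (-0.42, -0.38 and -0.36).

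Over the 18 astrocyte markers, 2 rose and 4 fell, and the median was 0.0085. Slc1a2, the main glial glutamate transporter, had 154870.00, 154379 and 158271 normalised reads untreated and 121516, 129334 and 154376 with saline. The highest saline library stood just under the untreated range, and Slc1a2 did not pass (-0.21, adjusted p = 0.288, and 0.075 after the correction). Kcnj10, the inward rectifier potassium channel, had 21638, 19472 and 16885 against 21451, 27053 and 24116, which overlapped (adjusted p = 0.161). Aldh1l1, whose promoter drives the GFP, had 552, 656 and 447 against 709, 759 and 640.3, and did not pass (0.36, adjusted p = 0.451). Sox9, a transcription factor of astrocytes, had 1587, 1058 and 1619 against 974, 1199 and 846 and did not pass either (-0.49, adjusted p = 0.231). In the list of potassium, water and gap junction transport genes, 0 of 15 rose and 3 fell, all named above.

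Among pan-reactive astrocyte genes, which rise in many injuries, 2 of 6 tested rose, and 7 of the 13 listed did not pass the filter on low values. Besides Gfap, Vim, another intermediate filament gene, had 528, 486 and 418 untreated against 937, 702 and 1091 with saline (0.91, adjusted p = 0.028) and was called after the correction (0.97, adjusted p = 0.0468). Fabp7, the brain fatty acid-binding protein of radial and ensheathing glia, had 5266, 4375 and 2899 against 10752, 8987 and 8337 (1.20, adjusted p = 2.29e-04). It was the 1 gene called of 9 olfactory ensheathing glia markers, whose median was -0.23. Ptgds, the prostaglandin D synthase of meninges and oligodendrocytes, had 2314, 1788 and 2225 against 5996, 8519 and 3539 (1.43, adjusted p = 4.18e-04), the 1 called of 9 fibroblast and meningeal markers. After the correction Fabp7 was called (1.14) and Ptgds was not (0.91, adjusted p = 0.0714). Cst3, the secreted protease inhibitor cystatin C, was named after its values were seen and had 13751, 15283 and 14132 against 20693, 22865 and 25755. It rose by 0.68 (adjusted p = 0.00112), and the corrected difference was 0.074.

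The metallothionein genes Mt1 and Mt2, which encode small metal-binding proteins induced by zinc and by glucocorticoids, rose together. Their promoters (RefSeq, GRCm38.p6, Mt1 chr8:94178839-94179138 and Mt2 chr8:94172368-94172667, both on the plus strand, from 250 bases before to 50 after the start, 5′ to 3′) are shown with matches to the core of the metal response element, TGCACNC or TGCGCNC on either strand, in capitals.
Mt1: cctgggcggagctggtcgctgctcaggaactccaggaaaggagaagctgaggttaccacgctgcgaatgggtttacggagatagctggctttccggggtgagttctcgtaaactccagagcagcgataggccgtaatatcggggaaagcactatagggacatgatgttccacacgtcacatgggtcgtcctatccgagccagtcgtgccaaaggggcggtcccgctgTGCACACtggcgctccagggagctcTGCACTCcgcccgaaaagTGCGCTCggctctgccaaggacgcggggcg
Mt2: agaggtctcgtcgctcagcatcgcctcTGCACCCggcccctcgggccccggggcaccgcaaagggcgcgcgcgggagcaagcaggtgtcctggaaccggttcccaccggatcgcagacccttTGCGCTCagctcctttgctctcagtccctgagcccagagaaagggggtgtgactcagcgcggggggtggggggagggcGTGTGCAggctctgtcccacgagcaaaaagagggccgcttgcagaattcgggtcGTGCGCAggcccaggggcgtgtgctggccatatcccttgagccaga
Mt1 holds 3 matches and Mt2 holds 4, and 1.97% of 32851 promoters hold 3 or more, while 25.7% hold at least 1. Mt1 had 1057, 1014 and 780.01 normalised reads untreated and 2026, 2311 and 2719 with saline (1.31, SE 0.18, adjusted p = 2.17e-04). Mt2 had 1066, 886 and 902 against 1869, 2321 and 2120.04 (1.14, SE 0.17, adjusted p = 4.29e-04). For both genes the lowest saline library stood above the highest untreated one. After the GC and length correction Mt1 was called (0.85, adjusted p = 0.0243) and Mt2 was not (0.51, adjusted p = 0.21).

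Mt1 and Mt2 were the 2 called of 13 glucocorticoid-responsive genes, of which 11 lay above 0 with a median of 1.14. After the GC and length correction the median was 0.78. Fkbp5, a member of this list, had 2, 0 and 0 reads untreated and 58, 60 and 15 with saline. It passed the filter by the saline libraries alone, which favours its sign. Tsc22d3, the glucocorticoid-induced leucine zipper, had 98.6, 95.3 and 52.6 against 110.4, 209 and 178, and did not pass (1.01, adjusted p = 0.251). Immediate early genes, which cells transcribe within minutes of stimulation, showed no call in limma among 15 tested. Their median was 0.90 in limma and -0.076 in edgeR. Jun had 193, 367 and 139.7 normalised reads untreated and 135, 91.2 and 128 with saline (-0.88, adjusted p = 0.272), Egr3 0, 9.3 and 4.15 against 52.5, 12.6 and 30.6, and Fosb 31.6, 39.5 and 11.06 against 15.200, 0 and 0. Egr3 and Fosb were at 0 in at least 1 library each.

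**Figure D4:**
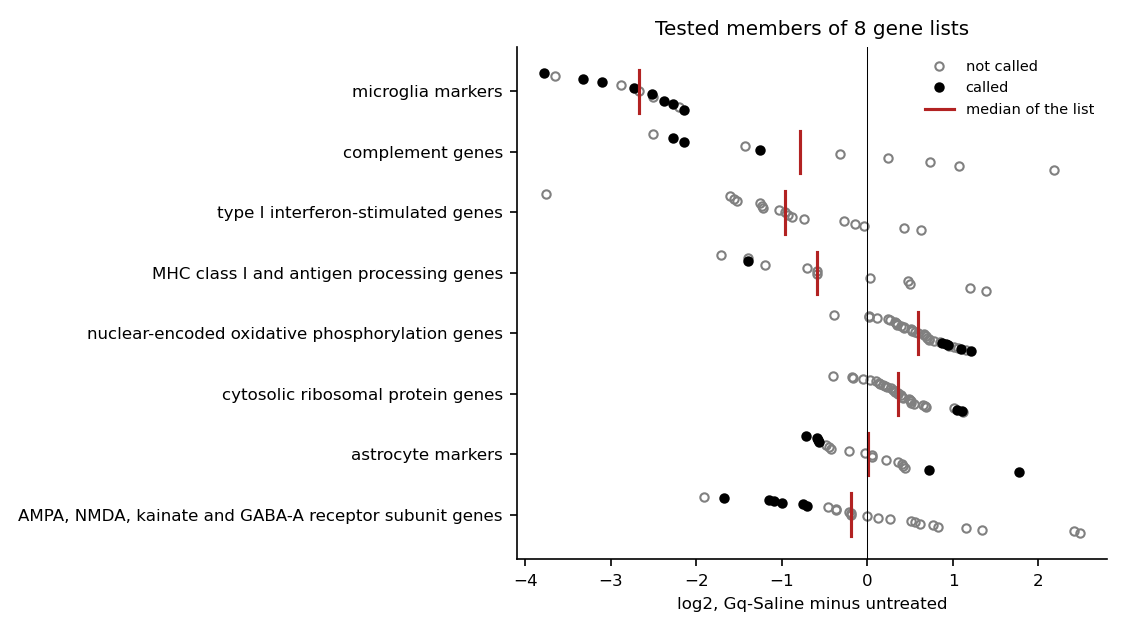
Log2 difference (Gq-Saline minus untreated) of each tested member of 8 gene lists; filled points were called in limma, open points were not, and red bars are list medians. All 13 microglia markers lie below 0 (median -2.67) and 34 of 35 oxidative phosphorylation genes above 0 (median 0.59).

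Genes of mitochondrial respiration lay mostly above 0, by less than 2-fold in the median. Of 35 nuclear-encoded oxidative phosphorylation genes, 5 rose and 0 fell, 34 lay above 0 with a median of 0.59, and 22 had no overlap between groups, against 9.74% of all genes in that direction. Atp5b, the catalytic beta subunit of ATP synthase, had 1429, 1658 and 2213 normalised reads untreated and 3304, 2566 and 3788 with saline (0.87, SE 0.18, adjusted p = 0.00863). Cox6a1, a cytochrome c oxidase subunit, had 487, 735 and 481 against 986, 1092 and 1083 (0.92, adjusted p = 0.019). Cox6c, of the same complex, Cyc1, of complex III, and Ndufb9, of complex I, rose by 0.94, 1.21 and 1.09. Ndufb9 was named to complete the 5. Without the third saline library 0 of the 35 were called, and with any other single library left out 1 to 3. After the GC and length correction 0 were called and the median was 0.28.

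Of 32 cytosolic ribosomal protein genes tested, 2 rose and 28 lay above 0, with a median of 0.36 that was -0.022 after the correction. Rpsa, a small-subunit protein gene, had 335, 369.6 and 452 untreated and 729, 845 and 804 with saline (1.05, adjusted p = 0.0104), and Rplp0, the large-subunit stalk protein gene, 225, 258 and 205 against 367, 535 and 614 (adjusted p = 0.0302). Of 24 glycolysis and glycogen genes, 2 rose. Pgam1, phosphoglycerate mutase, had 799.8, 886 and 899 against 1704, 1987 and 2071 (1.15, adjusted p = 4.29e-04) and was called after the correction (0.80, adjusted p = 0.0271). Ldhb, a lactate dehydrogenase subunit, rose by 0.62 (adjusted p = 0.019), while Ldha, the other subunit, had 290.2, 458 and 523 against 855, 694 and 622 and did not pass (adjusted p = 0.0909). After the correction Ldhb stood at 0.19 and was not called (adjusted p = 0.651).

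The rising genes with the largest differences were mostly of low to moderate level and of varied function. Prpf19, a spliceosome subunit, had 76.3, 86 and 171 normalised reads untreated and 482, 439 and 402 with saline (2.07, SE 0.33, adjusted p = 0.00112). Anapc13, of the anaphase-promoting complex, had 61.4, 46.5 and 44.3 against 285, 207 and 162 (2.06, adjusted p = 0.00919). Prpf19 and Anapc13 were called after the GC and length correction. Ost4, of the oligosaccharyltransferase that glycosylates proteins in the endoplasmic reticulum, rose by 1.88. Clybl, a mitochondrial lyase of the vitamin B12 pathway, Stx5a, a Golgi fusion protein, Pcif1, a methyltransferase of the mRNA cap, Morc2a, a chromatin-silencing ATPase, and Rnf7, a subunit of cullin ubiquitin ligases, rose by 2.46, 2.18, 1.66, 1.59 and 1.59.

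Chgb, which encodes the secretory granule protein chromogranin B, had 7.44, 55.8 and 23.5 untreated and 141, 158 and 142 with saline (2.70, adjusted p = 0.0237). Lhfpl4, which anchors GABA-A receptors at inhibitory synapses, had 33.5, 16.3 and 20.7 against 125, 95.3 and 134 (2.33, adjusted p = 0.0346). Disp2, of the Dispatched family, had 7.44, 25.6 and 0 against 160.3, 46.6 and 104 (3.94, adjusted p = 0.0433). In all 3 genes the untreated libraries were low, and Disp2 was at 0 in the third. Of 11 neuron markers tested, 0 rose and 1 fell, with a median of 0.67, and of 12 olfactory bulb interneuron and neuroblast markers 0 were called by limma, with a median of 0.81. The falling neuron marker was Map2, the dendritic microtubule protein, with 2405, 2555 and 3103 against 1753, 1732 and 1745 (-0.62, adjusted p = 0.0344). Calb2, the calretinin of granule and periglomerular cells, had 7.44, 13.9 and 15.21 against 68.4, 51.7 and 53.1 and did not pass (adjusted p = 0.151). Syt1, the calcium sensor of synaptic vesicles, overlapped between groups (234, 407 and 241 against 515, 373 and 485). No oligodendrocyte marker was called among 8 tested (median -0.18).

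Of 23 tested genes by which astrocytes act on synapses, 3 fell, among them Chrdl1 and Megf10, and 1 rose. Chrdl1, a secreted factor that promotes synapse maturation, had 3488, 3749.8 and 3972 normalised reads untreated and 1553, 1740.4 and 1842 with saline (-1.13, SE 0.14, adjusted p = 1.15e-04), a 2.18-fold decrease. Megf10, a receptor for engulfing synapses, had 1371, 1351 and 1643 against 698, 716 and 667 (-1.06, adjusted p = 0.00171). Both were called after the GC and length correction (-0.82 and -0.95). Sparc, a secreted matrix protein that limits synapse formation, rose by 0.72 (adjusted p = 0.00307). Sparc was not called after the correction (adjusted p = 0.139).

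Subunit genes of AMPA, NMDA, kainate and GABA-A receptors were added as a family after their values were seen. Of 30 genes, 25 were tested, 6 fell and 0 rose, 14 lay below 0, and the median was -0.19. Gabrg1, the gamma 1 subunit of GABA-A receptors found in glia, had 1359.7, 1365 and 1541 normalised reads untreated and 404, 461 and 472 with saline. All 3 saline libraries stood far below the lowest untreated library, and the difference was -1.67 (SE 0.19, adjusted p = 3.52e-05). It was -0.98 after the correction (adjusted p = 0.0134), the 1 subunit still called. The AMPA receptor genes Gria2, Gria3 and Gria4 fell by 0.70, 1.15 and 1.00, the NMDA receptor gene Grin3a by 0.75 and the GABA-A receptor gene Gabra4 by 1.10. Gria2 lay at -0.024 after the correction. Gria2 had 2634, 2404 and 2611 against 1614, 1256 and 1890.2, Gria3 472, 611 and 548 against 289.8, 266 and 187, and Gria4 833, 604 and 829.8 against 369, 326 and 434.

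Of 17 genes that handle glutamate and GABA, 3 fell and 0 rose. Besides Slc1a3 these were Slc7a11, the cystine-glutamate exchanger, with 1729.8, 1537 and 2072 against 1169.7, 1023 and 839.5 (-0.82, adjusted p = 0.0159), and Grm3, a glutamate receptor of astrocytes, with 1296, 1590.1 and 1986 against 885, 1011 and 1051 (-0.71, adjusted p = 0.0451). None of the 3 was called after the GC and length correction. Of 29 astrocyte transcription factor genes, Nfib, a nuclear factor I gene of gliogenesis, and Rorb, a nuclear receptor, fell by 0.63 and 0.72 (adjusted p = 0.0451 and 0.00638). After the correction they stood at -0.32 and -0.34 and were not called (adjusted p = 0.464 and 0.323), and Nfib did not pass in edgeR (adjusted p = 0.0561). Nfia, another nuclear factor I gene, had 3962, 3701 and 4943 against 2311, 2933 and 3304 and Zbtb20, a zinc finger factor of astrocytes, 2187, 1511 and 1874 against 1319, 1119.8 and 1249.97, and neither passed (adjusted p = 0.0568 and 0.0826).

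Gq proteins activate phospholipase C beta, which raises calcium through IP3 receptors. Of 16 genes of this pathway tested, 1 fell and the median was -0.0022. The called gene was Plcb1, a phospholipase C beta isoform, with 472, 809 and 789.7 normalised reads untreated and 438, 266 and 243 with saline (-1.14, adjusted p = 0.0282). Its isoform Plcb3 had 106, 102 and 176 against 277, 218 and 154, which overlapped. Rgs2, an inhibitor of Gq signalling, had 145, 55.8 and 70.5 against 198, 97.7 and 142 and did not pass (adjusted p = 0.455). Of 12 genes of ERK feedback, which limit growth factor signalling, Spred1, an inhibitor of Ras, and Etv1, an ETS factor induced by ERK, fell by 0.65 and 0.88 (adjusted p = 0.0168 and 0.0237). Spry2, a feedback inhibitor, had 189.7, 174 and 318 against 133, 147 and 130.2 and did not pass (adjusted p = 0.356). After the correction none of these 3 called genes, Plcb1, Spred1 and Etv1, was called.

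The transporters and enzymes of monoamines were at or near the limit of detection or were not called. Slc22a3, the organic cation transporter that a floxed allele targets in other mice of the series, had 0 reads in all 6 libraries, which allows up to 0.119 RPM over the 3 saline libraries and 0.425 RPM over the 3 untreated ones (3 reads of the group's total, counting error only). The Gq-CNO libraries held 104, 0 and 4 reads of it and the CNO-control libraries 7, 0 and 0, so that 1 library gave nearly all of them. Slc22a2, a related transporter, had 13 reads over the saline and 0 over the untreated libraries (exact permutation test of normalised reads, two-sided p = 0.4, where 3 against 3 cannot go below 0.1). Slc29a4, the plasma membrane monoamine transporter, had 1 and 2 reads. Maoa and Maob, the monoamine oxidases, had 472, 351 and 344 and 221, 446 and 271 untreated against 271, 219.6 and 401 and 227, 247 and 352 with saline and did not pass (adjusted p = 0.514 and 0.862). Tgm2, a transglutaminase that can attach serotonin to proteins, had 27.9, 18.6 and 8.3 against 37, 21.1 and 25.2 (adjusted p = 0.751). Of 6 tested genes of the monoamine list, 0 were called by limma.

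Malat1, an abundant nuclear RNA, had 14127, 17145 and 10435 normalised reads untreated and 7843, 7099 and 6165 with saline (-0.96, SE 0.15, adjusted p = 5.87e-04). It was the 1 gene called of 9 nuclear long noncoding RNA genes, whose median was -0.96, and after the GC and length correction it had an adjusted p of 0.0564. Xist, in the same list, did not pass (adjusted p = 0.0734), nor did Ddx3y (adjusted p = 0.596).

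The remaining lists held few calls. Of 23 cholesterol and lipoprotein genes, Abca1, the lipid exporter, fell (-0.95, adjusted p = 0.00575), with 1540.1, 1606 and 1568 normalised reads untreated and 728, 735 and 1006 with saline. Of 14 heat shock genes, Hsph1, a co-chaperone, rose (1.14, adjusted p = 0.0363), and of 11 unfolded protein response genes Atf4, the stress-induced transcription factor, rose (1.46, adjusted p = 0.0295). Of 17 clock genes Rorb alone was called, and of 10 inflammation-associated reactive astrocyte genes Iigp1 alone. In limma 0 genes were called in the lists of oligodendrocyte precursor, pericyte and ependymal markers, injury-associated reactive genes, MHC class II genes, cytokines and chemokines, Wnt and BMP targets, cell cycle genes and replication-dependent histones.

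Of the 76 called genes named above, 26 were also called after the GC and length correction. These were Ctss, Csf1r, P2ry12, Siglech, C1qb, C1qc, Mrc1, Lyz2, Cd53, Itgam, Mpeg1, Cd93, Tlr3, B2m, Ndrg2, Vim, Fabp7, Atp1b2, Mt1, Pgam1, Prpf19, Anapc13, Chrdl1, Megf10, Gabrg1 and Hsph1, and the other 50 were not. In edgeR 11 of the 76 did not pass, and those not yet given as such were Ebf1 (adjusted p = 0.0553), Disp2 (0.0561), Pcif1 (0.0509), Rnf7 (0.0571), Grin3a (0.0584) and Gabra4 (0.0552).

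The companion comparison of Gq-CNO with CNO-control called 3440 of 12149 genes (28.3%), 1608 higher (13.2%) and 1832 lower (15.1%). It sets the same 2 deposited tables against each other with different libraries. Of the 67 genes called higher in Gq-Saline, 64 were also higher in Gq-CNO than in CNO-control, and 53 were called there in the same direction. Of the 139 genes called lower that were not enriched in the mCh sort, 128 were lower there as well and 103 were called. Of the 26 that were enriched, 24 were tested there, 15 were lower and 0 were called. The enriched set was chosen in part by low RPM in the Gq-CNO GFP libraries, which are an arm of this comparison. Low members leave little power for a call. Cd53 and Mrc1 had medians of 1.14 and 1.18 RPM in Gq-CNO, with SEs of 1.16 and 0.97 for the companion difference. Csf1r and P2ry12 were higher, at 10.2 and 20.3 RPM (SEs 0.45 and 0.43). The counts called, 0 of 24 and 103 of 139, therefore cannot be read as a contrast between gene classes. Over the 10612 genes tested in both, 64.9% had the same sign in both comparisons. These counts were made without the GC and length correction, and the differences of both comparisons ran with GC content and length. After the correction, Slc1a3 (0.059), Rorb (0.20) and Nfib (0.18) no longer lay below 0 in the companion comparison. Megf10 (-1.18) and Atp1b2 (-0.77) were still called lower there.

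Without the GC and length correction, single genes were called in both comparisons or in the first alone. Ndrg2 had 62346, 46474 and 51678 normalised reads in Gq-CNO and 9758, 8231 and 8315 in CNO-control libraries, a difference of 2.60 (adjusted p = 4.85e-08). Gabrg1 had 1232, 993 and 1011 against 3112, 2973 and 2851 (-1.47), Chrdl1 5005, 4613 and 3446 against 10153, 7789 and 7047 (-0.94) and Mt1 5337, 5933 and 5776 against 1153, 996 and 1185 (2.36), each called and each with the sign it had between Gq-Saline and untreated. After the GC and length correction of the companion libraries, Chrdl1 was not called there (limma, -0.24, adjusted p = 0.368). Ndrg2 (2.03) and Mt1 (0.95) were still called. Ctss had 57.7, 86.8 and 48.6 against 14.4, 70.3 and 38.8 and was not called (0.85, adjusted p = 0.385). B2m had 2493, 3006 and 2585 against 2689.7, 2392 and 2388, and Csf1r 85.7, 104 and 83.6 against 96.3, 181 and 260.3, and neither was called (adjusted p = 0.59 and 0.167). After the correction B2m was called lower in Gq-CNO (limma, -0.76, adjusted p = 0.00337), and Csf1r was not called (-1.05, adjusted p = 0.115). Without the correction, the 2 effects differed by test for Ctss (-4.63, SE 0.82, adjusted p = 8.44e-04), B2m (-1.51, adjusted p = 0.00129) and Csf1r (-2.25, adjusted p = 0.0156). The difference was not past the threshold for Gabrg1 (-0.20, adjusted p = 0.7) or Chrdl1 (-0.19, adjusted p = 0.691). Over all genes, 667 of 12554 (5.31%) had effects that differed.

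**Figure D5:**
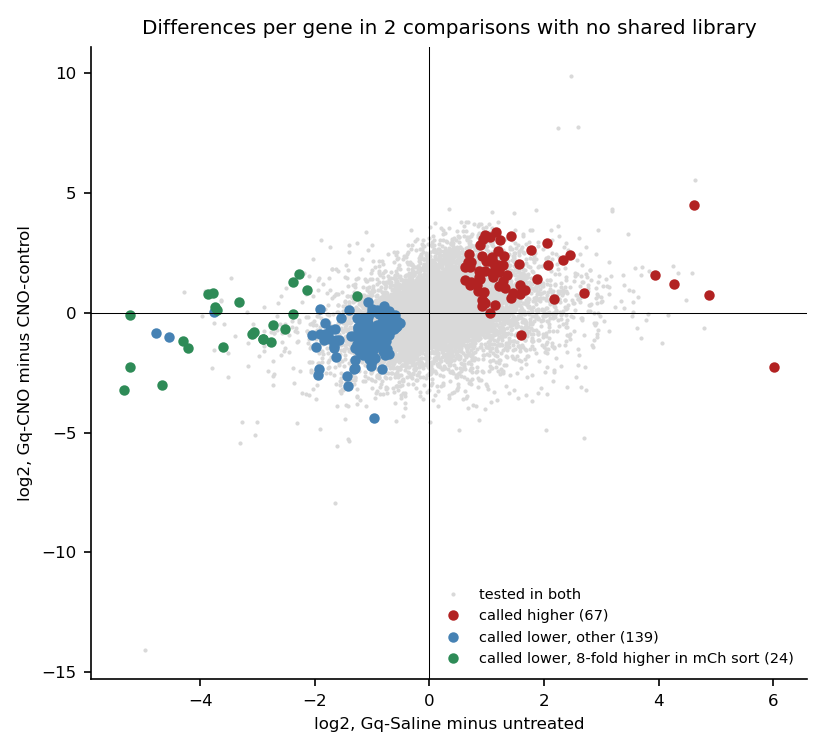
Log2 difference per gene between Gq-Saline and untreated (x axis) and between Gq-CNO and CNO-control (y axis), for the 10612 genes tested in both, without the GC and length correction. Of the genes called in the first comparison, 64 of 67 higher ones (red) lie above 0 on the y axis, 128 of 139 lower ones not enriched in the mCh sort (blue) lie below it, and the 24 enriched ones (green) fall on both sides, 15 of them below.

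Respiration and ribosomal genes had larger medians in the companion comparison. All 32 ribosomal protein genes tested and 32 of the 35 oxidative phosphorylation genes rose there, with medians of 2.43 and 1.86, against 0.36 and 0.59 here. In the companion libraries Malat1 took 2.37% to 4.10% of reads with CNO-control and 0.106% to 0.177% with Gq-CNO, and here 0.254% to 0.428% untreated and 0.150% to 0.214% with saline. The companion's log2 differences also ran with GC content (Spearman 0.37 across genes) and with length (-0.39), against 0.33 and -0.22 here. Genes are not independent replicates, so these are descriptions.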

How the data were processed

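RNA from 12 olfactory bulb libraries of GFP-sorted astrocytes was analysed, 3 each of Gq-Saline, untreated, Gq-CNO and CNO-control. Per the labels, libraries were made from 10 ng of total RNA with a Trio RNASeq kit and sequenced from both ends. The authors deposited normalised values, a signal equal to each gene's read count divided by 1 size factor per library. Per the submitters' processing notes, FastQC 0.11.7, MultiQC 1.11, STAR 2.5.0a, DESeq2 1.30.1 and mm10 were used.

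To recover reads, the values of a library were divided by the smallest positive one. All (100%) lay within 0.05 of a whole number. Depth was 1.72 to 11.09 times 1000000 reads in the 6 libraries, which limits precision for genes with few reads, and without molecular identifiers PCR copies count as reads. All 24421 entries were kept, 27 of them named as dates, and Rn45s (15.1% to 23.0% of reads) was kept. The 6 libraries were scaled together by median-of-ratios size factors, and log2(value + 1) was fitted by limma 3.58.1 (R 4.3.3) with a mean-variance trend. A gene was tested if 3 or more libraries reached a value of 10, and calls were made at an adjusted p under 0.05. A gene can thus pass by 1 group alone, as Cd53, C1qa and Tlr7 did by the untreated one and Egr3 and Fkbp5 by the saline one. The sign of its difference is then favoured by the filter.  The design had allowed for counts, and the test for normalised values was used. edgeR 4.0.16 and DESeq2 1.42.0 ran on recovered reads. Corrections for GC content and length (lowess) and the difference of effects were added after the data were seen. The script was tested on simulated data.

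Positions, lengths and GC content come from GENCODE release 21 for mouse, matched by symbol, for 99.5% of tested genes. Promoters were found in RefSeq for all 4 genes searched. Members and gene lists (44, and 2 added after values were seen) were chosen with earlier results of these data known. The text names 14 fixed genes, from the calls without overlap the 12 highest and the 12 lowest by log2 difference (gene models left out, and the group with the higher mean at or above the median level), and up to 4 members of each described list by smallest unadjusted p. Others are said to be chosen after their values were seen. Some members of the lists are counted and not reported here by name. Replicate numbers did not pair libraries (correlations of same-numbered deviations -0.04 to 0.02), so no block was used. The chi-square per gene between replicates was 12.0 or more, and no library was counted once for another. Levels from the mCh sorts are RPM only.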

Additional observations from a re-analysis of the deposited data

Results flagged for a closer look

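For 28 of the 105 genes tested that were chosen for naming, the effect of Gq-Saline against untreated differed from that of Gq-CNO against CNO-control. The 105 include Tubb2b, which is not described above. The test was 1 limma fit of 12 libraries (adjusted p under 0.05, where 5.31% of 12554 genes did). Genes were named largely by the size or p-value of the first effect. That choice favours large differences, so the count of 28 is no result about these genes. The values below are the first effect minus the second on the log2 scale. No cause of these differences was tested.

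Microglial and immune genes gave negative values, from a decrease in the first comparison and none called in the second as fitted. These were Ctss (-4.63), C1qb (-3.87), Csf1r (-2.25), P2ry12 (-1.86) and B2m (-1.51). After the GC and length correction, B2m was called lower in the second comparison as well (-0.76).

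Genes above 0 in both comparisons, with a larger value in the second, were Rplp1 (-3.12), which encodes a ribosomal stalk protein, Cox6c (-2.13), Ptgds (-1.76), Cox6a1 (-1.46), Cst3 (-1.45), Gfap (-1.40), Ldhb (-1.32), Rpsa (-1.12), Aldh1l1 (-1.12), Mt1 (-1.05), Atp5b (-0.86), Ndrg2 (-0.83) and Sparc (-0.58). Rplp1 and Aldh1l1 were not called in the first comparison (adjusted p = 0.0975 and 0.451).

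Of genes with opposite signs, Spry2 (-2.11) was called higher in Gq-CNO (1.43) and Slc1a2 (-0.79) likewise (0.57), with -0.68 and -0.21 in the first comparison. Rgs2 (2.69) was called lower in Gq-CNO (-1.94), with 0.75 in the first, and Morc2a (2.54) rose in the first and stood at -0.94 in the second. Gria4 (-1.15) fell in the first and stood at 0.15 in the second. Gria2 (1.03), Tlr3 (1.04), Abca1 (0.94) and Malat1 (3.43) fell in both, by more in the second. Xist (8.28) had reads in all CNO-control and no Gq-CNO libraries, while both other groups were mixed.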

How the results depend on the processing

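The 232 calls numbered 212 in edgeR (198 shared), 521 in DESeq2 (230 shared), 94 with no filter on low values (94 shared), 421 in 1 fit of 12 libraries and 1 (Ndrg2) without the mean-variance trend. They numbered 53 after the GC and length correction. Other pseudocounts, a filter of 50, TMM, quantile scaling and thinning gave 159 to 302. Leaving out 1 library gave 104 to 197 calls, under 155 for every library but the first untreated one. The companion comparison's 3440 calls ranged from 2183 to 3656 with 1 library left out, and were 2244 and 2183 without the second or the third CNO-control library.

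Replicate numbers pair no libraries, and a replicate block gave 408 calls, including all 232.

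Signs turned without the second untreated library for Slc29a4 (range with 1 library left out -1.88 to 0.443 normalised reads) and for Maob (-0.36 to 0.14), and for Slc1a2 after the correction (0.075). The causes were not tested. The untreated libraries' depth, 1.72 to 2.96 times 1000000 reads, limits what low genes can show.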
